A study of Mus musculus with 12 samples.

Results

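The 10 genes described here belong to the ATF4-CHOP arm of the integrated stress response, and they were taken by gene symbol from a table of 53796 genes measured by RNA sequencing in mouse liver. They are Atf4, Atf5, Ddit3, Trib3, Ppp1r15a, Sesn2, Chac1, Asns, Fgf21 and Gdf15. All 10 had 1 row each in the table and all 10 were among the 11728 genes that reached 1 FPKM in at least 3 libraries. FPKM scales fragments to transcript length and to the mapped fragments of a library. The study compared liver with and without ischemia, an interruption of blood supply, in 12 libraries of 3 genotypes. The groups were RIPK1 D138N (3 libraries from mice with a mutation known to remove the kinase activity of RIPK1), TNFR1/2 KO (3 libraries from mice lacking both TNF receptors), WT (3 libraries of wild-type liver) and Sham (3 libraries of wild-type, sham-operated liver). Sham is the group labelled as sham-operated. The other 3 groups carry no operation in their labels, and the series' title and design text were the ground for reading them as the ischemia arm. The sources used here give no strain, age or time between operation and collection. None of the 12 libraries is labelled as sham-operated with either mutation. A difference present without ischemia and a different response to it therefore cannot be told apart in the mutants. Whether repeats are separate animals is not in the labels, and p-values measure only the spread between these libraries.

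The integrated stress response begins with phosphorylation of the translation initiation factor eIF2 on its alpha subunit by a kinase that senses amino acid shortage, unfolded protein in the endoplasmic reticulum, haem shortage or double-stranded RNA. General translation slows while Atf4 mRNA, which carries upstream open reading frames, is translated more. ATF4 protein then enters the nucleus, pairs with C/EBP family proteins and activates genes for amino acid supply, redox control and feedback, along with the transcription factor CHOP, which Ddit3 encodes. Because ATF4 is set largely at translation, Atf4 mRNA does not measure ATF4 protein. In liver the pathway is known for 2 secreted hormones, FGF21 and GDF15.

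The sequence that ATF4 and C/EBP proteins are known to bind as a pair, the C/EBP-ATF response element, was searched as TGATGNAA on both strands of the RefSeq promoter windows (GRCm38.p6, 250 bases before to 50 after the annotated start). It occurred in windows of 4 of the 10 genes, Trib3, Chac1, Asns and Fgf21, and in 3.97% of all 32851 windows. The palindrome of the cAMP response element, TGACGTCA, occurred in 1 of the 10, Ppp1r15a, and in 1.79% of all windows. The 10 genes had 12 windows of 300.0 bases in all. The matched stretches are shown with the matched letters in capitals, 5′ to 3′ on the strand of the gene, to let the letters and their distance from the start be compared between genes. Genes without a match differed between groups as well. Chac1, Fgf21 and Ppp1r15a are given over the 250 bases before the start, and Asns and Trib3 over the 30 bases around the match.
Trib3 chr2:152344028-152344057: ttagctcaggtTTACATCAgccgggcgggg
Chac1 chr2:119350992-119351241: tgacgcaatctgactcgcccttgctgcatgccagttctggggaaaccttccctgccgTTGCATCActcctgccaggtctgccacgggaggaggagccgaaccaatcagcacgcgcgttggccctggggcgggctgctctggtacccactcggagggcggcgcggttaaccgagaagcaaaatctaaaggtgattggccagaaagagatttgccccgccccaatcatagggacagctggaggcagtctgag
Asns chr6:7693214-7693243: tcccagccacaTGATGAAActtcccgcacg
Fgf21 chr7:45615491-45615740: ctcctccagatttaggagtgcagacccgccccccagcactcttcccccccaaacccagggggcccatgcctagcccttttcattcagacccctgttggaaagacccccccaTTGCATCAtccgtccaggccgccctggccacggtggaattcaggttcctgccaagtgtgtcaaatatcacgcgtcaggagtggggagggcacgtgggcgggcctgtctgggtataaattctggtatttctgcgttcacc
Ppp1r15a chr7:45526269-45526518: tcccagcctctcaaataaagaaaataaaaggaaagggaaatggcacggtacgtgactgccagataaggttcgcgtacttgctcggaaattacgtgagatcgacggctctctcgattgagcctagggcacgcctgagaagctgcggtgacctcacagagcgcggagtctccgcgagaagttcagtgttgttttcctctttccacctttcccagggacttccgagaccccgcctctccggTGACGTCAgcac
Counted from the RefSeq start, the match lay at -193 to -186 in Chac1, at -139 to -132 in Fgf21, at -23 to -16 in Asns, at -12 to -5 in Ppp1r15a and at 15 to 22, after the start, in Trib3. These sides depend on the annotation. By the GENCODE coordinates given further on, the Asns match lies inside the gene and the Trib3 match before it. The genes Asns, Chac1 and Trib3 lie on chromosomes 6, 2 and 2, and Fgf21 and Ppp1r15a on chromosome 7. A match is a description of letters, and binding was not measured. The 6 genes with no such match of TGATGNAA were Atf4, Atf5, Ddit3, Ppp1r15a, Sesn2 and Gdf15, and no more than the absence of these letters from these windows follows from that.

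**Figure D1:**
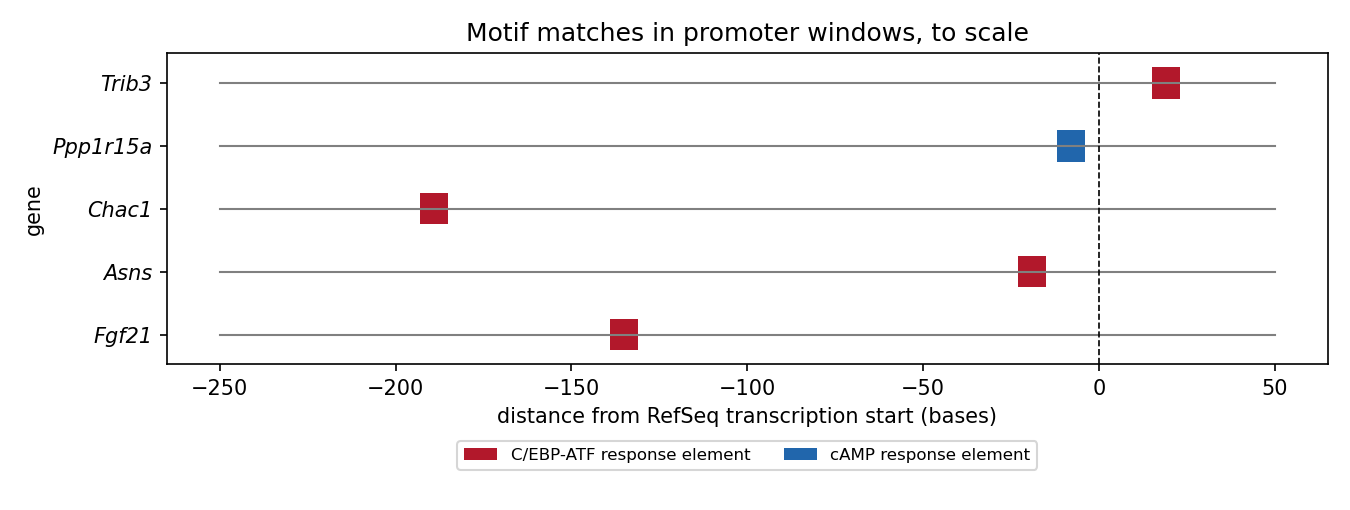
Positions of motif matches in the promoter windows of 5 genes, in bases from the RefSeq start (dashed line); grey lines are the 300.0-base windows and coloured blocks the matches. The 4 C/EBP-ATF matches lie at different distances, those of Chac1 and Fgf21 farther upstream than those of Asns and Trib3.

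The libraries differed in more than the groups. FPKM summed over all genes to 489348 to 518580 in RIPK1 D138N, 441296 to 512931 in TNFR1/2 KO, 288934 to 303514 in WT and 649373 to 750501 in Sham. Low values fell on whole-number steps, which put the fragments behind 1 FPKM per kilobase at 18.9 to 24.4 in RIPK1 D138N, 21.98 to 33.6 in TNFR1/2 KO, 34.7 to 61.8 in WT and 11.4 to 25.9 in Sham. All 3 WT libraries were deeper on this scale than the 9 others, and Sham libraries b and c were shallower than the 10 others, while Sham library a lay above all 3 RIPK1 D138N libraries. RIPK1 D138N libraries 2 and 3 had 20.1 and 23.4 FPKM of Xist, the RNA that silences 1 X chromosome in female cells, and Ddx3y, a gene of the Y chromosome, was 0.0176 and 0 FPKM there. The other 10 libraries had Xist at 0.0824 FPKM or less and Ddx3y at 11.97 FPKM or more. Results on RIPK1 D138N are given with these 2 libraries, and where a call changed, also without them. Without them RIPK1 D138N is library 1 alone, which is assumed to vary like the other groups, so a call lost there can come from the smaller group and does not show a smaller difference. Of the hepatocyte marker list, 5 of 5 tested genes were lower in WT than in Sham and 5 of 5 were higher in each mutant than in WT, with summed levels of 16288 to 17165 FPKM in RIPK1 D138N, 15821 to 19278 FPKM in TNFR1/2 KO, 4634 to 7454 FPKM in WT and 26297 to 31459 FPKM in Sham. Alb, the sixth of that list, is listed at 0 in every library. The Kupffer cell and macrophage list summed to 16.2 to 18.6 FPKM in RIPK1 D138N, 9.13 to 11.9 FPKM in TNFR1/2 KO, 60.4 to 87.0 FPKM in WT and 57.7 to 88.3 FPKM in Sham. These sums hold opposite differences: Cd68, a macrophage gene, was higher in WT than in Sham, at 49.6 ± 9.98 FPKM in WT and 2.36 ± 0.308 FPKM in Sham (SD, n = 3 each), while C1qa, Clec4f, Cd5l and Vsig4 were lower in WT than in Sham. Against WT, Cd68, C1qa and Marco were lower in RIPK1 D138N, and Cd68, C1qa, Marco and Clec4f were lower in TNFR1/2 KO. The part of these differences in the results was not tested. In bulk tissue, fewer cells of a type and less RNA per cell cannot be told apart.

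In WT liver, 5 of the 10 genes were higher than in Sham (Ddit3, Trib3, Sesn2, Ppp1r15a and Gdf15) and 3 were lower (Atf5, Asns and Fgf21). Atf4 and Chac1 did not pass the test. Tests used limma on log2(FPKM + 1) over all 11728 genes with Benjamini-Hochberg adjustment, and calls needed an adjusted p below 0.05. Of all genes tested, 16.4% were called higher, 41.9% lower and 58.2% either way. The share of the 10 genes called higher lay above that of all genes, though the 10 were chosen with earlier results of these data known. For a group of 10 genes, the 3 called lower were near the share of all genes. The median log2 fold change was 0.86 for the 10 genes and -0.36 for all genes tested. After median-of-ratios scaling, which moved the median of all genes to -0.03, 6 were called higher and 1 lower, and after quantile normalization 6 higher and 0 lower. The shares of all genes above are of unscaled values and cannot be set beside these counts.

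In RIPK1 D138N liver, 8 of the 10 genes were lower than in WT and 1, Gdf15, was higher. Of all genes tested, 29.8% were higher, 21.9% lower and 51.8% called either way. In TNFR1/2 KO liver, 6 of the 10 were lower than in WT and 1, again Gdf15, was higher, against 29.6% of all genes higher, 17.5% lower and 47.1% called either way. The median log2 fold change of the 10 genes was -1.52 in RIPK1 D138N and -1.04 in TNFR1/2 KO, against 0.11 and 0.14 for all genes tested. The 2 comparisons share the WT libraries. These shares are of all libraries without scaling, so the counts under other settings that follow cannot be set against them. After quantile normalization 8 genes were lower and 0 higher in RIPK1 D138N, and 7 lower and 0 higher in TNFR1/2 KO. With RIPK1 D138N library 1 alone, 7 genes were lower and 1 higher than in WT. Between the mutants, RIPK1 D138N against TNFR1/2 KO, limma called 0 of the 10 genes, against 0.929% of all genes (0.35% higher, 0.58% lower). Unadjusted limma p-values were under 0.05 for 4 of the 10, namely Atf5, Trib3, Ppp1r15a and Asns, and for 1444 of all 11728 genes. In each of those 4 the value was lower in RIPK1 D138N.

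**Figure D2:**
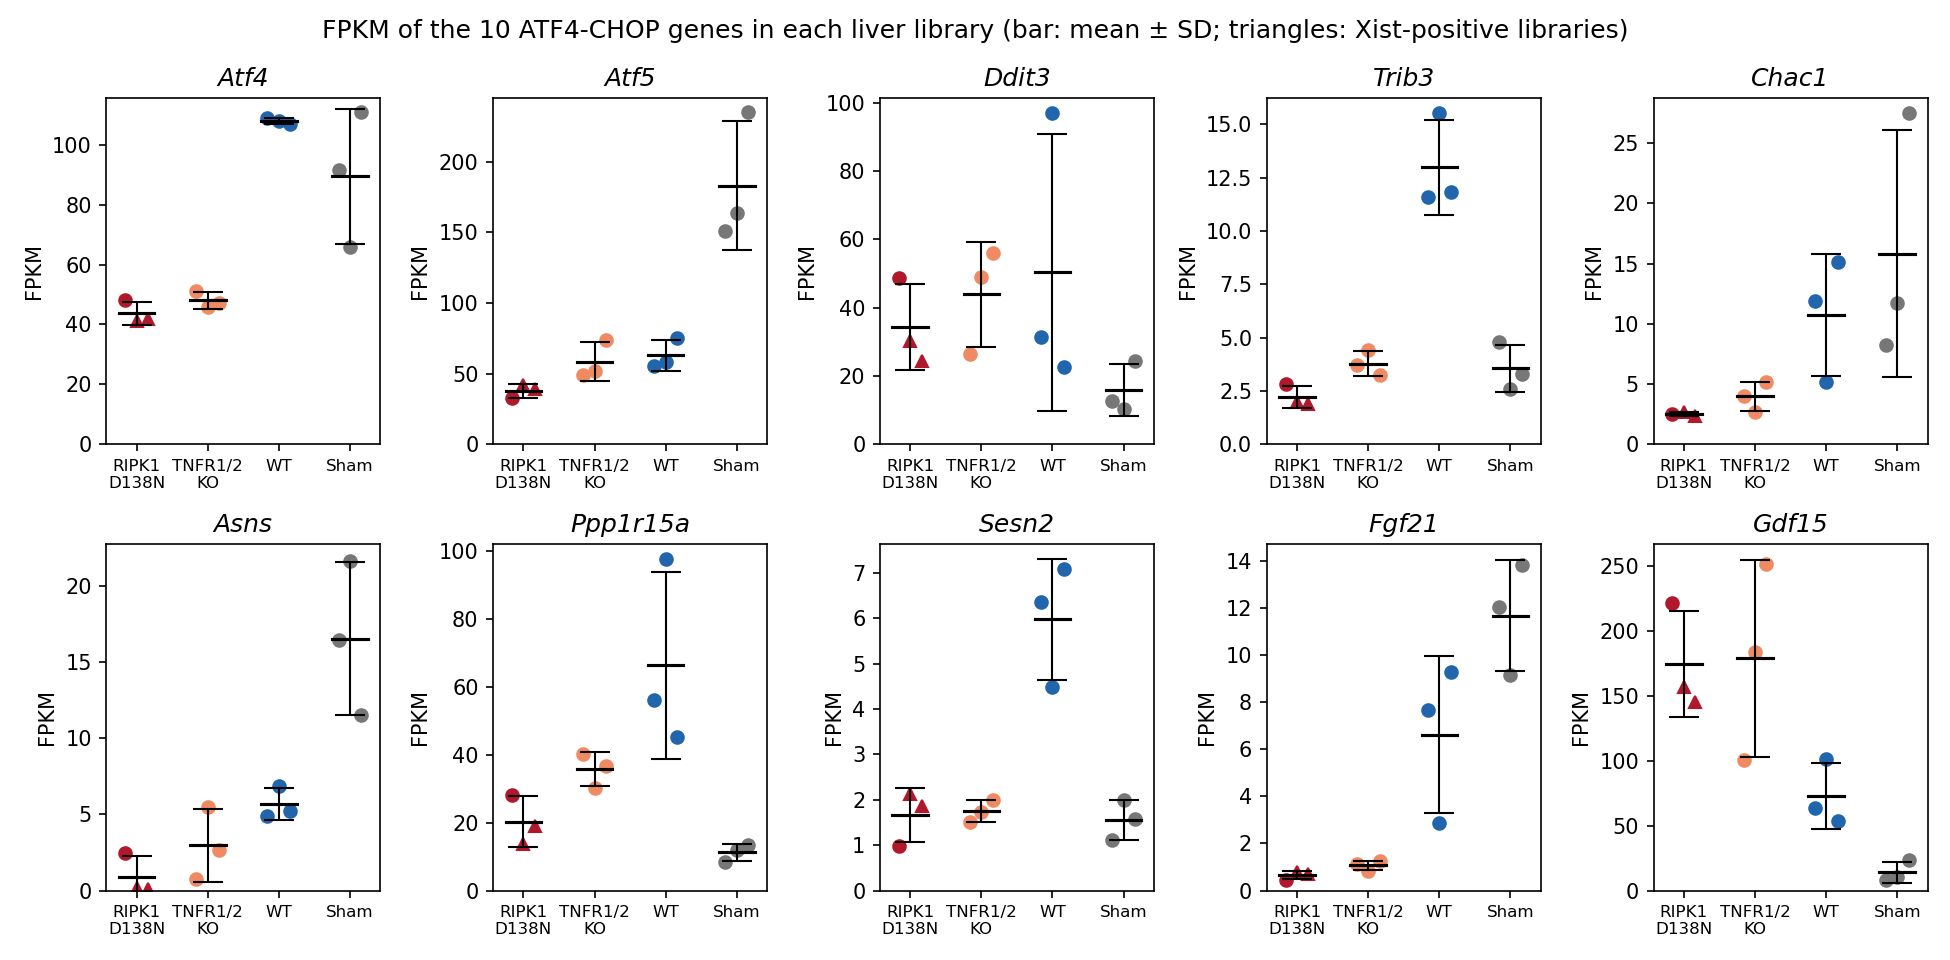
FPKM of each of the 10 genes in each of the 12 libraries, by group; points are libraries, triangles the 2 Xist-positive libraries, and bars the mean ± SD of 3 libraries. Trib3 and Sesn2 stand higher in the 3 WT libraries than in all 9 others, and Gdf15 is highest in the mutants.

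**Figure D3:**
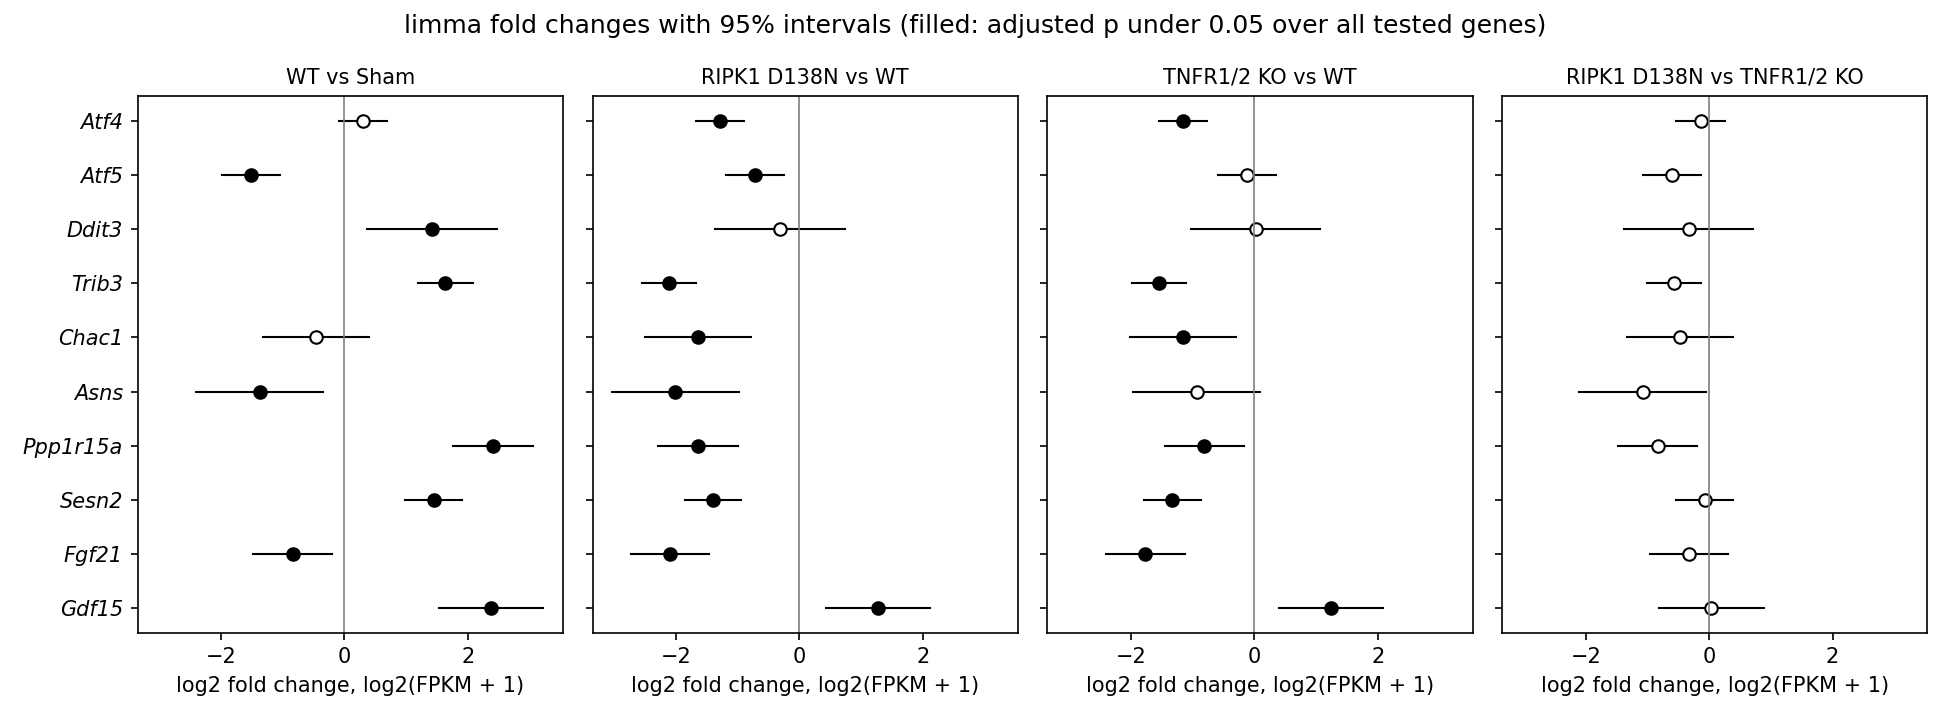
Log2 fold changes of the 10 genes on the log2(FPKM + 1) scale in 4 comparisons, from limma; lines are 95% intervals and filled points had an adjusted p below 0.05. Most points lie left of 0 in both comparisons of a mutant with WT, with Gdf15 on the right.

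The transcription factors come first. Atf4 (ENSMUSG00000042406, chr15:80255184-80257541, plus strand), the regulator at the head of the pathway, read 48.2, 41.2 and 41.7 FPKM in RIPK1 D138N libraries 1 to 3. It read 51.3, 45.8 and 47.3 FPKM in TNFR1/2 KO libraries 1 to 3. WT libraries, called a, b and c in table order because the numbers in their column names fit more than 1 sample's labels, read 109, 108 and 107 FPKM, and Sham libraries a, b and c read 91.7, 66.0 and 111 FPKM. All 6 mutant libraries lay below all 6 libraries of WT and Sham, while WT lay inside the range of Sham. By mean FPKM, Atf4 was 2.47 times lower in RIPK1 D138N than in WT (log2 fold change -1.29 with SE 0.18 and a limma adjusted p of 7.86e-05) and 2.24 times lower in TNFR1/2 KO than in WT (-1.15, limma adjusted p 0.000217). Against Sham it was lower in both, by -0.99 in RIPK1 D138N (limma adjusted p 0.00187) and -0.85 in TNFR1/2 KO (limma adjusted p 0.00513) on the log2 scale. With RIPK1 D138N library 1 alone, without the 2 Xist-positive libraries, the difference from Sham was -0.85 with a limma adjusted p of 0.0807. WT against Sham gave 0.30 (limma adjusted p 0.175), and this value depended on the scaling, at 0.74 after median-of-ratios scaling (limma adjusted p 0.00373) and 1.48 after quantile normalization (limma adjusted p 1.61e-05). It also passed without Sham library c, at 0.47 (limma adjusted p 0.0434).

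Atf5 (ENSMUSG00000038539, chr7:44812256-44816658, minus strand) encodes a related factor whose mRNA is also translated under eIF2 phosphorylation and which is known for control of mitochondrial protein quality. It read 32.6, 41.8 and 38.9 FPKM in RIPK1 D138N, 49.2, 51.9 and 74.0 FPKM in TNFR1/2 KO, 55.3, 58.2 and 75.2 FPKM in WT and 151, 164 and 235 FPKM in Sham. Every library of the ischemia arm lay below every Sham library, and TNFR1/2 KO overlapped WT. The difference from Sham was -2.23 in RIPK1 D138N (limma adjusted p 3.6e-05), -1.63 in TNFR1/2 KO (limma adjusted p 0.000266) and -1.51 in WT (limma adjusted p 7.24e-05). The last was -0.29 after quantile normalization (limma adjusted p 0.302). RIPK1 D138N was lower than WT by -0.72 (limma adjusted p 0.015), but leaving out RIPK1 D138N library 1 gave -0.62 with a limma adjusted p of 0.0517, and leaving out WT library c gave -0.58 with 0.0685. TNFR1/2 KO against WT gave -0.12 (limma adjusted p 0.684), and -0.96 after quantile normalization (limma adjusted p 0.00405). Nup62 and Il4i1, on the opposite strand, overlap Atf5 in exonic bases, and the sources used here do not give the strand setting of the quantification, so their fragments may be mixed.

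Ddit3 (ENSMUSG00000025408, chr10:127290774-127296288, plus strand) encodes CHOP, the factor known for driving cell death when the stress response persists. It read 48.5, 30.4 and 24.4 FPKM in RIPK1 D138N, 26.5, 49.0 and 56.1 FPKM in TNFR1/2 KO, 31.4, 96.9 and 22.7 FPKM in WT and 12.8, 10.2 and 24.4 FPKM in Sham. WT library b stood far above the other 2 WT libraries, and the lowest WT library lay under the highest Sham library. Ddit3 was higher in WT than in Sham by 1.42 (SE 0.48, limma adjusted p 0.023). The call ended without WT library b (0.81, limma adjusted p 0.112), without Sham library a (1.32, limma adjusted p 0.0669) and without Sham library b (1.17, limma adjusted p 0.0843). The mutants did not differ detectably from WT, at -0.31 in RIPK1 D138N (95% interval -1.36 to 0.74, limma adjusted p 0.609) and 0.02 in TNFR1/2 KO (95% interval -1.03 to 1.07, limma adjusted p 0.977). These intervals leave room for changes of about 1 log2 unit either way, and the TNFR1/2 KO value was negative after median-of-ratios scaling (-0.19) and quantile normalization (-0.64). Against Sham, TNFR1/2 KO was higher by 1.44 (limma adjusted p 0.0449), while RIPK1 D138N gave 1.11 (limma adjusted p 0.0996). The TNFR1/2 KO call ended when any of 4 libraries was left out, with 1.33 (limma adjusted p 0.107) without TNFR1/2 KO library 2, 1.24 (0.144) without TNFR1/2 KO library 3, 1.34 (0.11) without Sham library a and 1.20 (0.131) without Sham library b. Ddit3 overlaps exonic bases of Mars on the opposite strand and of a second annotated gene at the locus, so its values are uncertain to that extent.

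Of the feedback genes, Trib3 (ENSMUSG00000032715, chr2:152337422-152344032, minus strand), a pseudokinase gene induced by ATF4 and CHOP whose protein is known to restrain ATF4, read 2.83, 1.97 and 1.90 FPKM in RIPK1 D138N. It read 3.73, 4.40 and 3.22 FPKM in TNFR1/2 KO, 11.6, 15.5 and 11.8 FPKM in WT and 4.77, 2.58 and 3.31 FPKM in Sham. The 3 WT libraries stood apart, since the lowest of them was more than any of the 9 other libraries. WT was 3.65 times Sham by mean FPKM (log2 fold change 1.64, SE 0.20, limma adjusted p 2.32e-05). RIPK1 D138N was lower than WT by -2.11 (limma adjusted p 4.4e-06) and TNFR1/2 KO by -1.54 (limma adjusted p 5.42e-05). Neither mutant differed from Sham by limma, at -0.48 in RIPK1 D138N (95% interval -0.92 to -0.04, limma adjusted p 0.0935) and 0.09 in TNFR1/2 KO (95% interval -0.35 to 0.53, limma adjusted p 0.769). RIPK1 D138N lay below TNFR1/2 KO in every library, with a difference of -0.57 that did not pass adjustment (limma adjusted p 0.244).

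Ppp1r15a (ENSMUSG00000040435, chr7:45522916-45526268, minus strand) encodes GADD34, which brings a phosphatase to eIF2 and so restores translation. It read 28.2, 13.6 and 19.0 FPKM in RIPK1 D138N, 40.3, 30.3 and 36.6 FPKM in TNFR1/2 KO, 56.0, 97.4 and 45.3 FPKM in WT and 8.51, 11.8 and 13.3 FPKM in Sham. The 4 groups did not overlap and ran from WT at the top through TNFR1/2 KO and RIPK1 D138N to Sham. WT was 5.91 times Sham (2.41, SE 0.30, limma adjusted p 2.15e-05). RIPK1 D138N was lower than WT by -1.64 (limma adjusted p 0.00053) and TNFR1/2 KO by -0.81 (limma adjusted p 0.0404). The TNFR1/2 KO call was marginal, since it ended when TNFR1/2 KO library 1 (-0.90, limma adjusted p 0.0537), 2 (-0.70, 0.125) or 3 (-0.83, 0.0754), or WT library a (-0.89, 0.0611) or b (-0.49, 0.17), was left out. TNFR1/2 KO stayed above Sham by 1.60 (limma adjusted p 0.00232), and RIPK1 D138N against Sham gave 0.76 (limma adjusted p 0.0691). That value passed after median-of-ratios scaling (1.052, limma adjusted p 0.0384), after quantile normalization (0.98, limma adjusted p 0.0292) and without RIPK1 D138N library 2 (1.005, limma adjusted p 0.0371). Between the mutants the difference was -0.84 (95% interval -1.48 to -0.19, limma adjusted p 0.242).

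The genes of amino acid, glutathione and growth control differed among themselves. Sesn2 (ENSMUSG00000028893, chr4:132492032-132510501, minus strand), whose protein senses leucine and restrains the growth kinase complex mTORC1, read 0.991, 2.13 and 1.87 FPKM in RIPK1 D138N. It read 1.52, 1.74 and 2.00 FPKM in TNFR1/2 KO, 6.35, 4.496 and 7.09 FPKM in WT and 1.11, 1.99 and 1.58 FPKM in Sham. As with Trib3, the 3 WT libraries lay above the 9 others, whose groups overlapped. WT was 3.84 times Sham (1.44, limma adjusted p 8.53e-05). Sesn2 was lower than in WT in RIPK1 D138N by -1.40 (limma adjusted p 0.000143) and in TNFR1/2 KO by -1.33 (limma adjusted p 0.000246). Against Sham the values were 0.05 in RIPK1 D138N (95% interval -0.41 to 0.51) and 0.12 in TNFR1/2 KO (95% interval -0.34 to 0.58). For Sesn2, Trib3, Atf4 and Fgf21, the calls of each mutant against WT held in every alternative run that tested the gene. Sesn2 and Fgf21 were not tested in the run that needed 1 FPKM in all libraries.

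Chac1 (ENSMUSG00000027313, chr2:119351229-119354381, plus strand) encodes an enzyme that breaks down glutathione. It read 2.52, 2.64 and 2.35 FPKM in RIPK1 D138N, 4.05, 2.72 and 5.15 FPKM in TNFR1/2 KO, 11.9, 5.21 and 15.2 FPKM in WT and 8.23, 11.7 and 27.5 FPKM in Sham. The mutants lay below both wild-type groups in every library, although TNFR1/2 KO library 3 came within a small margin of WT library b. RIPK1 D138N was lower than WT by -1.64 (SE 0.40, limma adjusted p 0.00405) and TNFR1/2 KO by -1.16 (limma adjusted p 0.0289). The TNFR1/2 KO call ended without TNFR1/2 KO library 1 (-1.19, limma adjusted p 0.0577) or 2 (-0.97, 0.106), and without WT library a (-1.04, 0.093) or c (-0.88, 0.124). Against Sham both mutants were lower, by -2.10 in RIPK1 D138N (limma adjusted p 0.00227) and -1.62 in TNFR1/2 KO (limma adjusted p 0.0108). WT against Sham gave -0.46 (95% interval -1.32 to 0.40, limma adjusted p 0.339), and 0.07 after quantile normalization.

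Asns (ENSMUSG00000029752, chr6:7675169-7693254, minus strand), the asparagine synthetase gene and a classical ATF4 target, read 2.47, 0.173 and 0.0849 FPKM in RIPK1 D138N. It read 0.750, 5.49 and 2.64 FPKM in TNFR1/2 KO, 4.86, 6.84 and 5.25 FPKM in WT and 16.4, 21.6 and 11.5 FPKM in Sham. The 3 Sham libraries lay above the 9 others, TNFR1/2 KO library 2 lay above WT libraries a and c, and the 2 lowest of all 12 were the Xist-positive RIPK1 D138N libraries, where about 8.54 and 3.24 fragments stood behind the value. Asns was lower than in Sham by -3.38 in RIPK1 D138N (limma adjusted p 0.000359), -2.30 in TNFR1/2 KO (limma adjusted p 0.00427) and -1.37 in WT (limma adjusted p 0.0252). The WT call ended after median-of-ratios scaling (-0.96, limma adjusted p 0.118) and quantile normalization (-0.99, 0.124), and without WT library a (-1.28, 0.0708) or c (-1.33, 0.063) or Sham library a (-1.35, 0.059) or b (-1.16, 0.0852). RIPK1 D138N was lower than WT by -2.01 (limma adjusted p 0.00345), and library 1 alone, without the 2 Xist-positive libraries, gave -0.93 with a limma adjusted p of 0.197. TNFR1/2 KO against WT gave -0.93 (95% interval -1.96 to 0.10, limma adjusted p 0.125), with -1.39 without TNFR1/2 KO library 2 (limma adjusted p 0.0337) and -0.44 without TNFR1/2 KO library 1 (limma adjusted p 0.457). Between the mutants the difference was -1.07 (limma adjusted p 0.378), and it passed, at -1.61 with a limma adjusted p of 0.0431, when RIPK1 D138N library 1 was left out, while leaving out TNFR1/2 KO library 2 gave -0.62 (limma adjusted p 0.733). In the main model Trib3, Ppp1r15a and Sesn2 were higher in WT than in Sham while Asns was lower, so the genes did not move as 1 block there. The Asns side of this contrast rests on the call that ended under either scaling.

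The 2 hormones ran in opposite directions. Fgf21 (ENSMUSG00000030827, chr7:45613886-45615490, minus strand), which encodes a liver hormone of fasting and protein restriction, read 0.460, 0.797 and 0.697 FPKM in RIPK1 D138N. It read 1.12, 0.844 and 1.24 FPKM in TNFR1/2 KO, 7.66, 2.89 and 9.29 FPKM in WT and 12.03, 9.16 and 13.8 FPKM in Sham. All 6 mutant libraries lay below all WT and Sham libraries, while WT library c overlapped Sham. By mean FPKM, Fgf21 was 10.2 times lower in RIPK1 D138N than in WT (log2 fold change -2.09 with SE 0.30 and a limma adjusted p of 8e-05) and 6.18 times lower in TNFR1/2 KO than in WT (-1.77, limma adjusted p 0.000336). Against Sham it was lower by -2.93 in RIPK1 D138N (limma adjusted p 4.21e-05), -2.60 in TNFR1/2 KO (limma adjusted p 8.65e-05) and -0.83 in WT (limma adjusted p 0.0274). The WT call ended after median-of-ratios scaling (-0.44, limma adjusted p 0.189) and quantile normalization (-0.44, 0.23). It also ended without WT library b (-0.41, limma adjusted p 0.0937), Sham library a (-0.81, 0.0661) or Sham library c (-0.71, 0.0901).

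Gdf15 (ENSMUSG00000038508, chr8:70629393-70632456, minus strand) encodes a stress hormone that acts through a receptor in the hindbrain. It read 221, 157 and 145 FPKM in RIPK1 D138N, 101, 184 and 252 FPKM in TNFR1/2 KO, 63.5, 101 and 53.5 FPKM in WT and 8.28, 10.4 and 23.4 FPKM in Sham. All 9 libraries of the ischemia arm lay above the 3 Sham libraries, and RIPK1 D138N lay above WT without overlap while TNFR1/2 KO library 1 overlapped WT library b. Gdf15 was 12.5 times Sham in RIPK1 D138N (3.65, limma adjusted p 6.73e-05), 12.8 times Sham in TNFR1/2 KO (3.62, limma adjusted p 6.1e-05) and 5.20 times Sham in WT (2.38, limma adjusted p 0.000206). It was higher than WT by 1.28 in RIPK1 D138N (SE 0.39, limma adjusted p 0.0154) and by 1.24 in TNFR1/2 KO (limma adjusted p 0.0195). Both of these calls ended after quantile normalization, at 0.32 (limma adjusted p 0.508) in RIPK1 D138N and 0.39 (limma adjusted p 0.421) in TNFR1/2 KO. The RIPK1 D138N call also ended without RIPK1 D138N library 1 (1.09, limma adjusted p 0.0503), WT library a (1.21, 0.0504) or WT library c (1.09, 0.0649). The TNFR1/2 KO call ended without TNFR1/2 KO library 2 (1.17, limma adjusted p 0.0588) or 3 (0.95, 0.0862), and without WT library a (1.17, 0.0613) or c (1.049, 0.0784). The direction was positive in all of these.

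**Figure D4:**
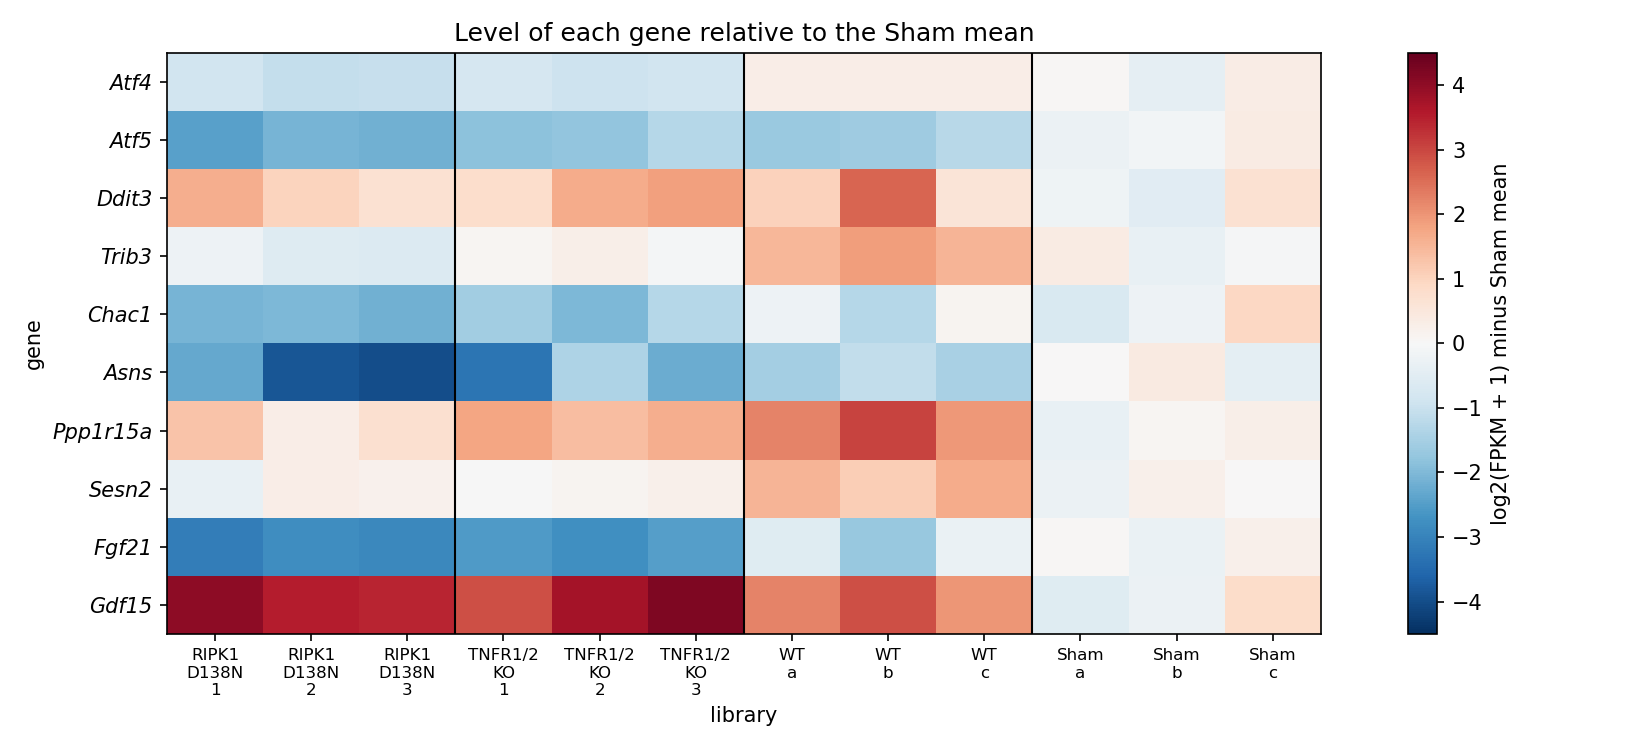
Level of each gene in each library as log2(FPKM + 1) minus the mean of the 3 Sham libraries; red is above and blue below Sham. Gdf15 is red in all 9 libraries of the ischemia arm, Fgf21 and Asns are blue there, and Trib3 and Sesn2 are red in WT.

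Set against Sham, 5 of the 10 genes were lower in RIPK1 D138N (Atf4, Atf5, Chac1, Asns and Fgf21), and Atf4, Atf5, Chac1, Asns and Fgf21 were lower in TNFR1/2 KO. Higher than Sham were Gdf15 in RIPK1 D138N, and Gdf15, Ddit3 and Ppp1r15a in TNFR1/2 KO. Of all genes tested, 30.2% were called in RIPK1 D138N (7.51% higher, 22.7% lower) and 25.6% in TNFR1/2 KO (7.46% higher, 18.1% lower). The 2 comparisons share the Sham libraries. The median log2 fold change was -0.73 for the 10 genes and -0.22 for all genes in RIPK1 D138N, and -0.38 and -0.18 in TNFR1/2 KO. With median-of-ratios scaling or with quantile normalization, 2 genes were higher and 5 lower in RIPK1 D138N, and the shares of all genes above are of unscaled values. With RIPK1 D138N library 1 alone, 1 was higher and 4 were lower.

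**Figure D5:**
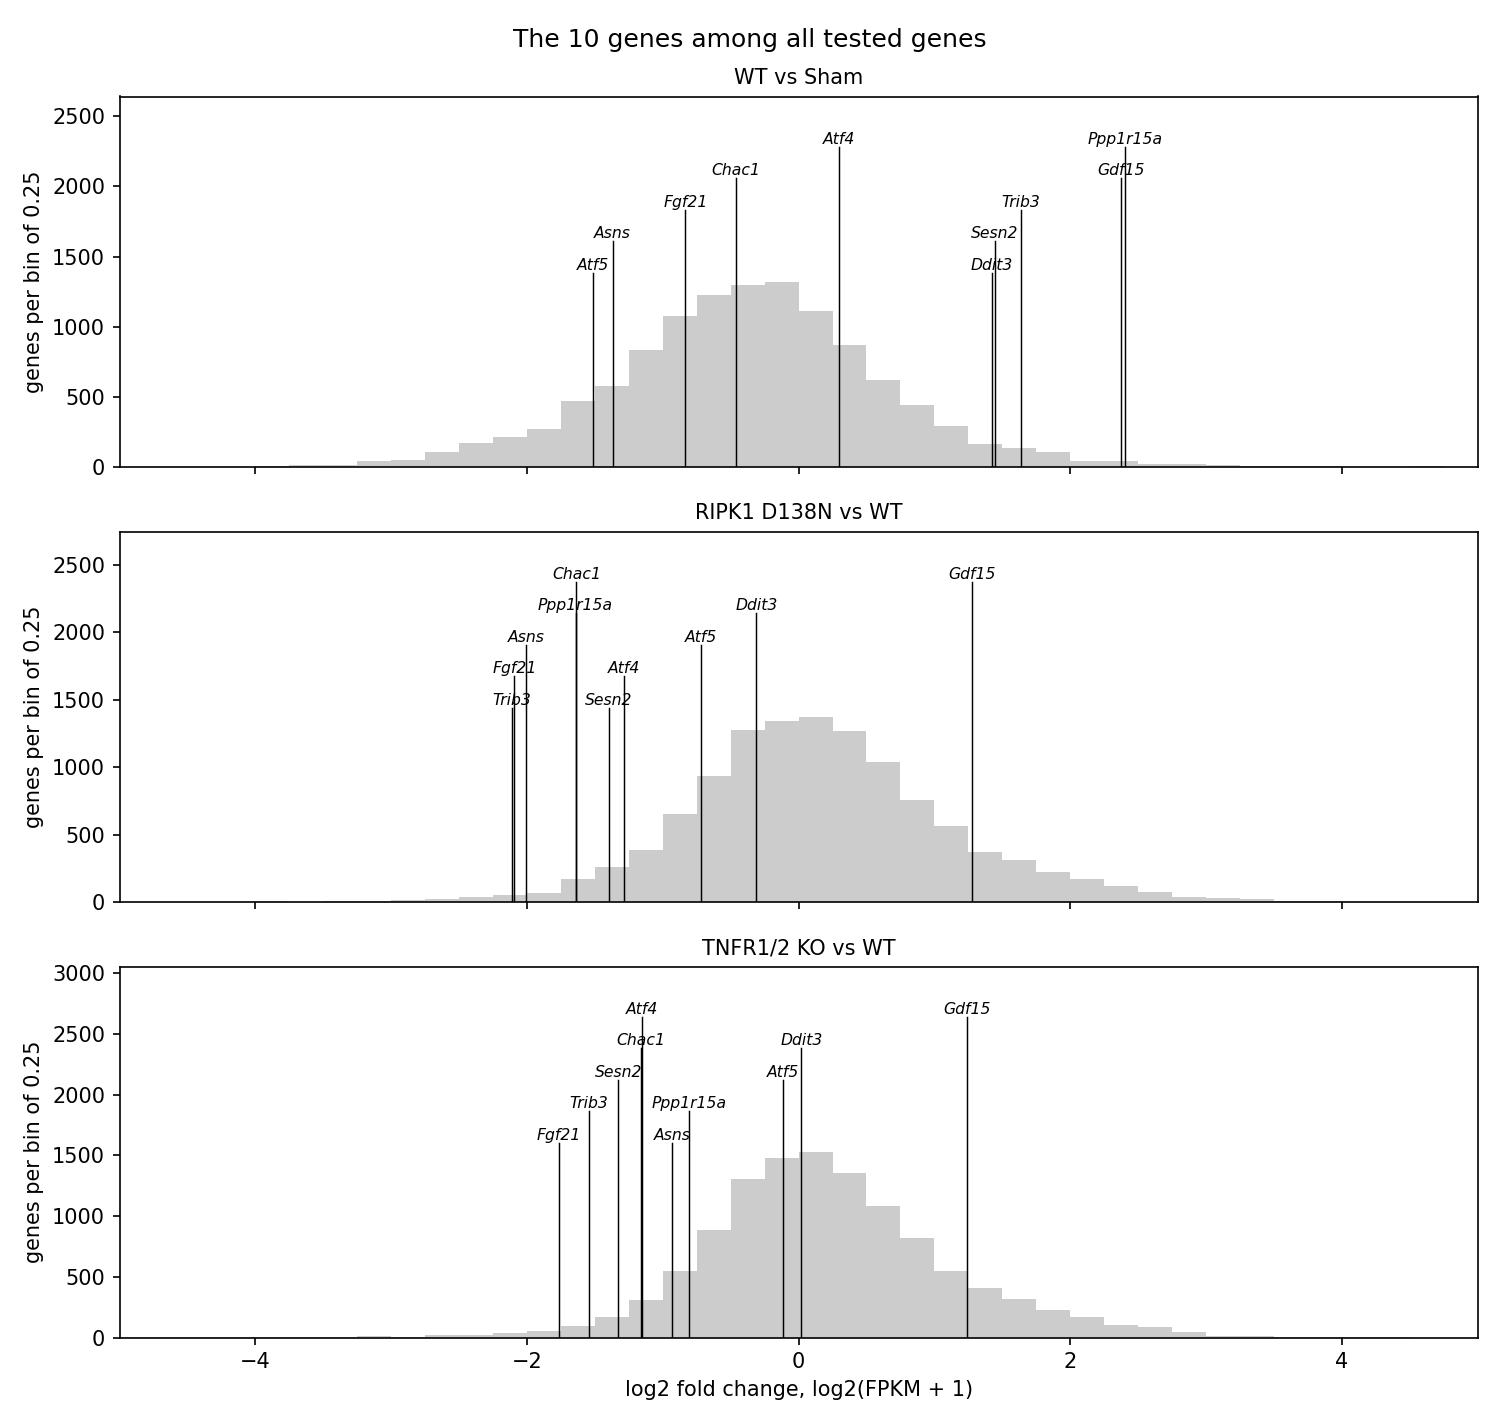
Distribution of log2 fold changes of all 11728 tested genes (grey, in bins of 0.25) with the 10 genes marked by black lines, in 3 comparisons. The 10 genes spread to both sides in WT vs Sham and lie mostly on the left in the comparisons of each mutant with WT, apart from Gdf15.

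Other genes of the pathway were counted from lists. Of 10 tested genes known as other ATF4 or CHOP targets, 8 were higher than Sham in WT and 0 were lower, and 9 of 10 were lower and 0 higher in each mutant than in WT. Their median log2 fold change was 1.62 in WT against Sham, -1.26 in RIPK1 D138N against WT and -1.22 in TNFR1/2 KO against WT. Ero1l, an oxidase of the endoplasmic reticulum that CHOP induces, had the largest change among these 10 in WT against Sham and in each mutant against WT. It averaged 3.07 ± 0.66 FPKM in RIPK1 D138N, 5.63 ± 1.61 FPKM in TNFR1/2 KO, 42.5 ± 12.2 FPKM in WT and 3.41 ± 0.38 FPKM in Sham (SD, n = 3 each). The log2 fold change of Ero1l was 3.26 in WT against Sham (limma adjusted p 3.62e-07), -3.39 in RIPK1 D138N against WT (limma adjusted p 7.03e-07) and -2.70 in TNFR1/2 KO against WT (limma adjusted p 2.79e-06). With RIPK1 D138N library 1 alone, 7 of the 10 were lower than in WT.

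Of 5 tested genes of amino acid and one-carbon synthesis, WT had 2 higher and 1 lower than Sham, RIPK1 D138N had 1 higher and 2 lower than WT, and TNFR1/2 KO had 1 higher and 3 lower than WT. After median-of-ratios scaling WT had 4 higher and 1 lower than Sham. Mthfd2, a mitochondrial folate enzyme, averaged 0.451 ± 0.415 FPKM in RIPK1 D138N, 0.573 ± 0.221 FPKM in TNFR1/2 KO, 13.2 ± 2.90 FPKM in WT and 2.47 ± 0.78 FPKM in Sham (SD, n = 3 each). Psat1, an enzyme of serine synthesis, averaged 0.329 ± 0.243 FPKM in RIPK1 D138N, 0.226 ± 0.031 FPKM in TNFR1/2 KO, 10.2 ± 3.99 FPKM in WT and 0.991 ± 0.649 FPKM in Sham (SD, n = 3 each). Both rose in WT against Sham, by 2.04 for Mthfd2 (limma adjusted p 1.52e-05) and 2.47 for Psat1 (limma adjusted p 1e-05) on the log2 scale. Both were lower in RIPK1 D138N than in WT, by -3.31 for Mthfd2 (limma adjusted p 8.31e-07) and -3.02 for Psat1 (limma adjusted p 3.32e-06), and in TNFR1/2 KO than in WT, by -3.16 for Mthfd2 (limma adjusted p 1.25e-06) and -3.12 for Psat1 (limma adjusted p 3e-06). Cth, which makes cysteine, ran the other way, at 179 ± 18.6 FPKM in RIPK1 D138N, 149 ± 21.5 FPKM in TNFR1/2 KO, 22.1 ± 1.35 FPKM in WT and 147 ± 6.19 FPKM in Sham (SD, n = 3 each). It was lower in WT than in Sham by -2.68 (limma adjusted p 7.46e-08) and higher than WT by 2.96 in RIPK1 D138N (limma adjusted p 1.36e-07) and 2.69 in TNFR1/2 KO (limma adjusted p 1.99e-07).

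Of 7 tested amino acid transporters, WT had 5 higher and 1 lower than Sham. RIPK1 D138N had 1 higher and 6 lower than WT, and TNFR1/2 KO had 1 higher and 5 lower than WT. Slc3a2, the heavy chain shared by several transporters, averaged 20.0 ± 3.58 FPKM in RIPK1 D138N, 16.8 ± 0.99 FPKM in TNFR1/2 KO, 58.9 ± 3.99 FPKM in WT and 19.5 ± 3.93 FPKM in Sham (SD, n = 3 each). Its log2 fold change was 1.56 in WT against Sham (limma adjusted p 1.06e-05), -1.52 in RIPK1 D138N against WT (limma adjusted p 1.75e-05) and -1.75 in TNFR1/2 KO against WT (limma adjusted p 7.36e-06). Slc38a2, a transporter of neutral amino acids, was the member called in the other direction in each comparison of a mutant with WT, at 36.0 ± 7.85 FPKM in RIPK1 D138N, 37.5 ± 9.58 FPKM in TNFR1/2 KO, 14.9 ± 4.16 FPKM in WT and 53.3 ± 19.1 FPKM in Sham (SD, n = 3 each). Its rise over WT in RIPK1 D138N (1.23, limma adjusted p 0.00512) and in TNFR1/2 KO (1.28, limma adjusted p 0.00448) did not pass after quantile normalization, at 0.78 (limma adjusted p 0.065) and 0.81 (limma adjusted p 0.0581), nor with RIPK1 D138N library 1 alone (0.86, limma adjusted p 0.143).

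Of 12 cytosolic tRNA synthetases, WT had 2 higher and 4 lower than Sham, RIPK1 D138N had 0 higher and 6 lower than WT, and TNFR1/2 KO had 0 higher and 5 lower than WT. The counts in WT against Sham were near the shares of all genes, 16.4% higher and 41.9% lower. The split in WT against Sham turned with the scaling, to 4 higher and 0 lower after median-of-ratios scaling and 6 higher and 0 lower after quantile normalization. After quantile normalization 9 were lower and 0 higher in each mutant than in WT. Gars, the glycine enzyme, had the largest rise and the largest falls, at 9.16 ± 1.81 FPKM in RIPK1 D138N, 11.2 ± 1.48 FPKM in TNFR1/2 KO, 26.9 ± 4.74 FPKM in WT and 14.9 ± 1.61 FPKM in Sham (SD, n = 3 each). Gars differed by 0.80 in WT against Sham (limma adjusted p 0.00246), by -1.46 in RIPK1 D138N against WT (limma adjusted p 3.53e-05) and by -1.19 in TNFR1/2 KO against WT (limma adjusted p 0.000199).

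A list of genes for chaperones of the endoplasmic reticulum and for the disposal of misfolded proteins, with Xbp1 itself among them, was counted in the same way. The ATF6 and XBP1 arms of the unfolded protein response are known to drive many such genes. All 10 of the list were lower in WT than in Sham, against 41.9% of all genes. The median log2 fold change was -1.69, against -0.36 for all genes, and 5 of 10 were still lower after quantile normalization. Sdf2l1, a cofactor of the chaperone BiP, fell most, at 19.3 ± 4.59 FPKM in WT and 171 ± 62.4 FPKM in Sham (SD, n = 3 each), a log2 fold change of -3.04 (limma adjusted p 1.07e-06). Each mutant also had 8 of the 10 lower and 0 higher than Sham. The medians were -1.18 in RIPK1 D138N and -1.25 in TNFR1/2 KO, and 22.7% and 18.1% of all genes were lower. RIPK1 D138N had 3 of the 10 higher and 1 lower than WT, and TNFR1/2 KO had 2 higher and 0 lower. Of all genes, 29.8% were higher in RIPK1 D138N and 29.6% in TNFR1/2 KO, so the counts of higher genes were near or below those shares. After quantile normalization the RIPK1 D138N split was 1 higher and 4 lower and the TNFR1/2 KO split 1 higher and 2 lower. Herpud1, which acts in the disposal of misfolded proteins, averaged 271 ± 32.2 FPKM in RIPK1 D138N, 244 ± 31.2 FPKM in TNFR1/2 KO and 51.1 ± 3.81 FPKM in WT (SD, n = 3 each). Its rise over WT was 2.38 in RIPK1 D138N (limma adjusted p 3.47e-06) and 2.23 in TNFR1/2 KO (limma adjusted p 6.37e-06). Against Sham, Herpud1 was called lower in WT and was not called in either mutant.

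Of 7 bZIP proteins known to pair with ATF4 or to share its sites, WT had 3 higher and 1 lower than Sham. Atf3, itself induced by ATF4, stood out at 78.5 ± 34.4 FPKM in RIPK1 D138N, 89.2 ± 12.2 FPKM in TNFR1/2 KO, 131 ± 41.7 FPKM in WT and 2.84 ± 0.72 FPKM in Sham (SD, n = 3 each). Its difference from Sham was 4.31 in RIPK1 D138N (limma adjusted p 1.57e-06), 4.56 in TNFR1/2 KO (limma adjusted p 6.16e-07) and 5.07 in WT (limma adjusted p 6.71e-08). Atf3 was above Sham in all 3 groups of the ischemia arm, as Gdf15 was. RIPK1 D138N had 0 of the 7 higher and 4 lower than WT, with 0 called either way from RIPK1 D138N library 1 alone, and TNFR1/2 KO had 1 higher and 1 lower, or 0 higher and 4 lower after quantile normalization.

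For each of the 10 genes, the gene outside the group with the most similar profile was taken as the one with the highest Pearson correlation of log2(FPKM + 1) over the 12 libraries, among genes with a mean of at least 5 FPKM and no predicted name. The 12 libraries fall into 4 groups and share their depth and scaling, so the correlations are descriptions. The most similar gene was Blcap for Atf4 (r = 0.97), Bsdc1 for Atf5 (r = 0.98), Gadd45a for Ddit3 (r = 0.89), Zfand2a for Trib3 (r = 0.97) and Map4 for Sesn2 (r = 0.98). It was Ccnl1 for Ppp1r15a (r = 0.95), Tab2 for Chac1 (r = 0.97), Eif1a for Asns (r = 0.95), Serpina3n for Fgf21 (r = 0.98) and Nfkbia for Gdf15 (r = 0.96). Gadd45a averaged 114 FPKM in RIPK1 D138N, 227 FPKM in TNFR1/2 KO, 221 FPKM in WT and 21.3 FPKM in Sham. Zfand2a averaged 2.76 FPKM in RIPK1 D138N, 4.32 FPKM in TNFR1/2 KO, 21.2 FPKM in WT and 3.95 FPKM in Sham. Nfkbia, the inhibitor of NF-kB, averaged 110 FPKM in RIPK1 D138N, 137 FPKM in TNFR1/2 KO, 70.1 FPKM in WT and 29.1 FPKM in Sham, the same order of WT and Sham below the mutants as for Gdf15. Serpina3n averaged 85.6 FPKM in RIPK1 D138N, 129 FPKM in TNFR1/2 KO, 838 FPKM in WT and 2092 FPKM in Sham.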

How the data were processed

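RNA of 12 mouse liver libraries was sequenced in 4 groups of 3. The authors deposited 1 table of FPKM values for 53796 genes. STAR 2.5.4a and the mm10 build are named in the submitters' processing notes, which also list Cuffdiff and Cufflinks 2.2.1. The sources used here do not give their settings. Column names of all groups carry a number, but those of WT and Sham fit the title of one sample and the description of another, so these columns were mapped to their group only. Per the file headers no fragment counts are given, so depth was read from the steps of low values, and it limits the precision of the lowest values (Asns, Fgf21). The 10 genes were matched by symbol, with coordinates from GENCODE M21 on the same build.

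Values were tested by limma 3.58.1 (R 4.3.3), with a mean-variance trend, on log2(FPKM + 1), in 1 model of 4 group means. Genes with at least 1 FPKM in 3 or more libraries were tested, and p-values were adjusted by Benjamini-Hochberg over all of them. Fold changes on this scale understate those of low genes. The procedure was tested on simulated data. The replicate numbers shared by RIPK1 D138N and TNFR1/2 KO were not used in the main model. Alternatives changed the pseudocount, filter, scaling, variance model, groups in the model and libraries kept. The 10 genes, the gene lists and the rule for named genes were chosen with earlier results of these data known. Alternatives for the list counts, the counts over all genes and the named list genes were added after seeing the data. The rule names all 10, the called gene with the largest rise and the largest fall of a list in a comparison (mean at least 5 FPKM in the higher group), any called gene of a list with 5 calls or fewer, and the most similar gene of each.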

Additional observations from a re-analysis of the deposited data

How the results depend on the processing

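Of 862 recomputed fold changes of the 10 genes, 776 kept their direction and their side of the threshold, 52 lost the call, 10 gained it and 24 changed sign. The count of called genes in WT against Sham was 5 with no filter on low values, against 8 in the main model. It was 5 to 8 when 1 library was left out, with 5 without Sham library a. With at least 1 FPKM in all libraries it was also 5. There Sesn2, Asns and Fgf21 were not tested and the other genes kept their calls. Of all genes, 7475 of 27155 were called with no filter and 5169 of 8222 with at least 1 FPKM in all libraries. For TNFR1/2 KO against WT the count among the 10 genes was 4 with no filter, against 7, and 4 to 6 when 1 library was left out, with 4 without WT library a. For RIPK1 D138N against TNFR1/2 KO it was 0 to 1 when 1 library was left out, the 1 being Asns without RIPK1 D138N library 1. With no filter more genes enter the adjustment, and the fold changes are the same. Sign changes fell on values that had not passed. They were -0.19 for Ddit3 in TNFR1/2 KO against WT with median-of-ratios scaling, and with quantile normalization 0.075 for Chac1 in WT against Sham, -0.64 for Ddit3 in TNFR1/2 KO against WT and -0.074 for Gdf15 in RIPK1 D138N against TNFR1/2 KO. Without the 2 Xist-positive libraries, which leaves 1 RIPK1 D138N library, they were 0.23 for Ddit3 in RIPK1 D138N against WT, 0.0032 for Atf4, 0.21 for Ddit3 and 0.0051 for Asns in RIPK1 D138N against TNFR1/2 KO, and -0.35 for Sesn2 in RIPK1 D138N against Sham. With 1 library left out, the range was -0.20 to 0.13 for Sesn2 and -0.33 to 0.33 for Gdf15 in RIPK1 D138N against TNFR1/2 KO, -0.085 to 0.24 for Sesn2 in RIPK1 D138N against Sham, and -0.73 to 0.30 for Ddit3 in RIPK1 D138N against WT. It was -0.39 to 0.63 for Ddit3 and -0.30 to 0.017 for Atf5 in TNFR1/2 KO against WT, -0.015 to 0.24 for Sesn2 and -0.067 to 0.28 for Trib3 in TNFR1/2 KO against Sham, and -0.81 to 0.0052 for Chac1 in WT against Sham. The cause was not tested. With the replicate number as a block, RIPK1 D138N against TNFR1/2 KO again called 0 of the 10 genes, and 11 of all genes against 109. Over all genes that comparison gave 60 with no filter and 39 without the 2 Xist-positive libraries, and RIPK1 D138N against Sham gave 1038 from its 1 remaining library, against 3539 from 3. Deviations of libraries with the same number correlated at -0.10, -0.20 and 0.06 for numbers 1, 2 and 3. With 3 libraries a group, these values cannot decide whether libraries of the same number share more than the number. No paired analysis was possible for comparisons with WT or Sham because the numbers in their column names fit more than 1 sample's labels. Depth limits the low values of Asns and Fgf21.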

Other observations

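Of 5 tested genes for receptors of FGF21 and GDF15, 3 were higher and 1 lower than WT in each mutant. Of all genes, 29.8% were higher and 21.9% lower in RIPK1 D138N, and 29.6% higher and 17.5% lower in TNFR1/2 KO. Klb, the co-receptor of FGF21, averaged 2.74 ± 0.61 FPKM in RIPK1 D138N, 3.25 ± 0.98 FPKM in TNFR1/2 KO, 1.27 ± 0.30 FPKM in WT and 1.46 ± 0.41 FPKM in Sham (SD, n = 3 each). It was higher than WT on the log2 scale by 0.72 in RIPK1 D138N (limma adjusted p 0.0118) and by 0.89 in TNFR1/2 KO (limma adjusted p 0.00366). The RIPK1 D138N call on Klb ended without library 2 (0.59, limma adjusted p 0.0504) and from library 1 alone (0.50). Fgfr3 was higher than WT by 0.83 in RIPK1 D138N (limma adjusted p 0.00185; 0.52 with 0.0929 from library 1 alone) and by 1.10 in TNFR1/2 KO (limma adjusted p 0.000263). Fgfr2 was higher by 0.98 in RIPK1 D138N (limma adjusted p 0.00546; 0.51 with 0.237 from library 1 alone) and by 0.84 in TNFR1/2 KO (limma adjusted p 0.0146), a call that ended without TNFR1/2 KO library 1 (0.65, limma adjusted p 0.0662) or WT library b (0.73, 0.0529). Fgfr1 averaged 1.15 ± 0.30 FPKM in RIPK1 D138N, 1.18 ± 0.08 FPKM in TNFR1/2 KO and 2.80 ± 0.36 FPKM in WT (SD, n = 3 each), lower than WT by -0.83 in RIPK1 D138N (limma adjusted p 0.00237) and by -0.80 in TNFR1/2 KO (limma adjusted p 0.00329). Gfral, the GDF15 receptor of the hindbrain, is listed at 0 in every library.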
